A study of Mus musculus with 22 samples.

Results

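Fatty acid metabolism was followed through 35 genes of fatty acid synthesis, activation and beta-oxidation in primary mouse microglia (brain macrophages) activated with lipopolysaccharide (LPS). The genes were taken by symbol from a list drawn up by function, with no threshold on their values, and all 35 were found among the 15725 symbols of the expression table. Of these, 34 passed the filter on low values (at least 1 FPKM in at least 3 libraries), as did 11070 genes in all, and Acacb did not. By role the genes comprise 12 of synthesis, 16 of oxidation and 7 that activate fatty acids or release them from coenzyme A.

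The study compared 2 ways of suppressing autophagy, and a treatment labelled CLA, in microglia given LPS, with RNA sequencing of 22 libraries. Cells were shaken off mixed glial cultures made from cortices of newborn C57BL/6 mice, and no transgene or knockout allele is named in the labels. Every culture received LPS at 100 ng/ml for 24 h, and no culture without LPS was analysed here. LPS+Baf A1 (n = 5) also received bafilomycin A1, an inhibitor of the vacuolar proton pump, at 10 nM. LPS+CLA (n = 6) received CLA, which the labels do not spell out, at 50 nM. LPS+siAtg5 (n = 5) was transfected for 48 h before treatment with an siRNA at 50 nM against Atg5, a gene needed to form autophagosomes. LPS+dNC (n = 3), whose abbreviation the labels do not spell out either, is the comparator that the design names for LPS+siAtg5, and LPS alone (n = 3) is the comparator of the other treatments. No label tells if the replicates of a group were cultured separately, and the p-values therefore cover only the spread among these libraries, which can be technical.

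Fatty acids are built in the cytosol from acetyl-CoA and malonyl-CoA by fatty acid synthase, and the endoplasmic reticulum lengthens them in a cycle of 4 reactions. For breakdown they are joined to coenzyme A, carried into mitochondria as carnitine esters and shortened in repeated turns of a dehydrogenase, a hydratase, a hydroxyacyl dehydrogenase and a thiolase, with the electron transfer flavoprotein carrying the electrons of the first step to the respiratory chain. Macrophages activated with LPS are known to rely on glycolysis and to use citrate for fatty acid synthesis, whereas oxidation is commonly linked to alternative activation.

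Atg5 was at 12.6 to 13.5 FPKM in the 5 LPS+siAtg5 libraries and at 21.4 to 24.3 FPKM in the 3 LPS+dNC libraries (log2 difference -0.73, limma adjusted p = 4.05e-12), so the target mRNA was lower but present. All 16 microglial markers checked were at 1 FPKM or more on average in each group, apart from Cx3cr1 in LPS+dNC (0.177 FPKM). The LPS+siAtg5 libraries stood apart from the other 17: their median gene was at 4.53 to 4.8 FPKM against 2.62 to 3.25 FPKM. Genes at 1 FPKM or more numbered 10752 to 10908 in them, against 9112 to 9571. They also held more mRNA of other brain cells. The summed level of the astrocyte markers was 413 to 478 FPKM in LPS+siAtg5, against 28.4 to 67.9 FPKM in LPS+dNC, and 13 of the 13 tested were higher, among them Aqp4 at 53.4 FPKM in LPS+siAtg5 against 0.337 FPKM in LPS+dNC. Neuronal markers summed to 61.2 to 76.7 FPKM in LPS+siAtg5, against 1.95 to 14.6 FPKM in LPS+dNC, with 8 of 8 tested higher, and markers of fibroblasts, mural and endothelial cells to 94.9 to 127 FPKM against 9.89 to 20.2 FPKM, with 6 of 9 higher and 1 lower. Some of these markers, among them Sox9, Slc4a4, Syt1, Gad2 and Pdgfrb, reached 1 FPKM only in LPS+siAtg5 libraries. They passed the filter through that group, so their rise was favoured in advance. In the other libraries astrocyte markers summed to 44.3 to 49.8 FPKM with Baf A1, 38.3 to 71.7 FPKM with CLA and 30.5 to 34.1 FPKM with LPS alone, where Gjb6 and Ntsr2 were at 0. Neuronal markers summed to 7.96 to 11.3 FPKM with Baf A1, 0.93 to 7.92 FPKM with CLA and 14.2 to 18.2 FPKM with LPS alone. Of 8 tested, 5 were lower with Baf A1 and 8 with CLA. Of the 16 microglial markers, 6 were higher and 8 lower with Baf A1, 6 higher and 5 lower with CLA, and 12 higher and 3 lower in LPS+siAtg5 against LPS+dNC. Among all genes tested, 32.7% were higher and 25.1% lower with Baf A1, and 40.4% and 22.6% with CLA, at the same threshold. In LPS+siAtg5 against LPS+dNC these shares were 59.6% and 21.6%. The part of the other brain cells in the results below was not tested. LPS replicate 3, LPS+dNC replicate 1 and LPS+CLA replicate 2 lay apart from their group mates, and counts are also given without them. Their median gene was at 2.62, 2.76 and 2.85 FPKM in that order. Their group mates were at 2.9 to 2.96, 2.97 to 3.06 and 3.16 to 3.25 FPKM. These libraries also had the fewest genes at 1 FPKM or more of their groups (9245, 9191 and 9112). No other measure of their distance is given.

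Most of the 34 tested genes were higher in each treated group. A gene was called at a limma adjusted p under 0.05 over all genes tested, with values as log2(FPKM + 1), a scale that understates the change of low genes. With Baf A1, 26 rose and 1, Acsl4, fell (median log2 difference 0.48), where 32.7% of all genes tested were called higher, 25.1% lower and 57.8% in either direction, with a median over all genes of 0.039. With CLA, 25 rose and 1, again Acsl4, fell (median 0.43), against 40.4% called higher, 22.6% lower, 63.1% in either direction and a median of 0.09 over all genes. In LPS+siAtg5 against LPS+dNC, 30 rose and 2, Acsl5 and Cpt2, fell (median 0.72), in a comparison in which 59.6% of all genes were called higher, 21.6% lower and 81.2% in either direction, with a median of 0.34. The 30 include Acot1 and Acot2, which passed the filter only through LPS+siAtg5. In bulk RNA, a change in the share of a cell type and a change in RNA per cell cannot be told apart. Without the 3 libraries that lay apart, 26 rose and 1 fell with Baf A1, 27 rose and 2 fell with CLA, and 30 rose and 3 fell in LPS+siAtg5.

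The choice of scaling bears on the LPS+siAtg5 values. When each library was rescaled by the median ratio of its genes to their geometric mean over libraries, called median-of-ratios below, the median over all genes of LPS+siAtg5 against LPS+dNC moved to 0.063. Called genes were then higher in 54.1% of cases (4699 higher, 3981 lower), against 73.4% as deposited. Of the 34 genes described here, 25 were then called higher and 5 lower, with a median of 0.48. For CLA the same rescaling moved the median over all genes to -0.012 and the share of higher calls to 49.4% (3370 higher, 3453 lower), against 64.1% as deposited, and left 22 of the 34 higher and 2 lower. For Baf A1 it moved the share of higher calls to 49.8%, against 56.6%, with 26 of the 34 higher and 1 lower. A log2 value followed by "with median-of-ratios" below is that of the rescaled data, and every other value is on the deposited scale.

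**Figure D1:**
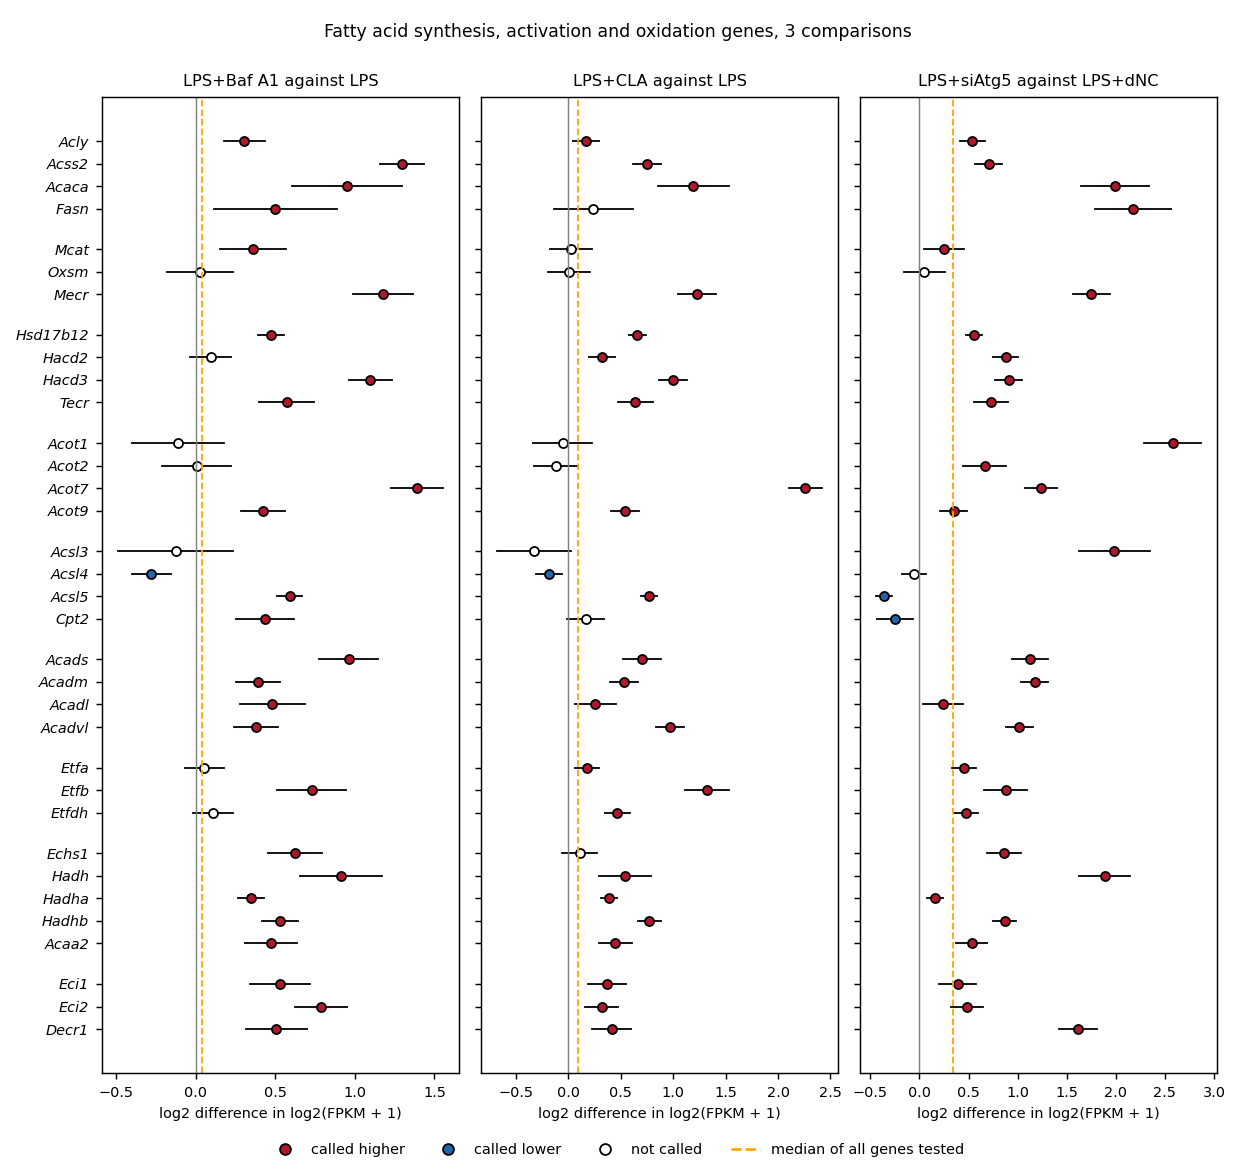
Log2 differences in log2(FPKM + 1), with 95% confidence intervals, of the 34 tested genes in 3 comparisons, grouped by role down the page; red is called higher, blue called lower, open not called, and the dashed line is the median of all genes tested. Most points lie right of the dashed line, Acsl4 lies left of 0 with Baf A1 and CLA, and Acsl5 and Cpt2 lie left of 0 in LPS+siAtg5 against LPS+dNC.

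Cytosolic synthesis begins with acetyl-CoA, which Acss2 makes from acetate and Acly from citrate. Of the 34 genes tested, Acss2 had the second largest rise with Baf A1 on the log2(FPKM + 1) scale, after Acot7, and the largest ratio of mean FPKM. It was at 3.91, 4.15, 4.49, 4.65 and 4.52 FPKM in the 5 LPS+Baf A1 libraries, at 2.56 to 2.71 (median 2.66) FPKM in LPS+CLA and at 1.15, 1.09 and 1.28 FPKM in LPS alone. No library of either treatment overlapped those of LPS alone, and the means were 3.7 times (Baf A1, log2 difference 1.297, SE 0.0675, adjusted p = 4.86e-13) and 2.26 times that of LPS (CLA, log2 difference 0.75, SE 0.0654, adjusted p = 1.15e-09). In LPS+siAtg5 it was at 5.28, 6.12, 5.84, 5.5 and 5.45 FPKM, against 3.2, 3.39 and 2.66 FPKM in LPS+dNC (log2 difference 0.70, SE 0.0675, adjusted p = 2.22e-09, 0.44 with median-of-ratios). LPS+dNC was itself above LPS alone for this gene (log2 difference 0.91, SE 0.0755, adjusted p = 7.1e-10). Acly changed less, with 44.2 ± 1.18 FPKM (SD, n = 5) with Baf A1, 40.2 ± 2.36 FPKM (n = 6) with CLA and 35.7 ± 4.21 FPKM (n = 3) with LPS alone. Its rise was called with Baf A1 (log2 difference 0.31, SE 0.0618, adjusted p = 0.000208) and with CLA (log2 difference 0.17, SE 0.0599, adjusted p = 0.0161), but the call with CLA was lost without LPS replicate 3 (0.073, adjusted p = 0.25), with median-of-ratios (0.032) and in 3 further alternatives. Acly averaged 49.8 ± 1.3 FPKM (n = 5) in LPS+siAtg5 and 34 ± 2.15 FPKM (n = 3) in LPS+dNC (log2 difference 0.54, SE 0.0618, adjusted p = 4.29e-08, 0.22 with median-of-ratios).

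Acetyl-CoA carboxylase makes malonyl-CoA, the committed step of synthesis. Acaca, the cytosolic form, was at 6.96, 5.27, 5.51, 9.46 and 7.13 FPKM with Baf A1, at 6.12 to 9.62 (median 8.67) FPKM with CLA and at 4.16, 2.99 and 2.1 FPKM with LPS alone. Both treated groups lay wholly above LPS alone (log2 difference 0.95, SE 0.167, adjusted p = 4.29e-05 with Baf A1 and 1.19, SE 0.162, adjusted p = 1.12e-06 with CLA). Values were 8.62, 7, 9.62, 7.5 and 7.26 FPKM in LPS+siAtg5, against 0.87, 1.51 and 1.42 FPKM in LPS+dNC (log2 difference 1.99, SE 0.167, adjusted p = 2.58e-10, 1.75 with median-of-ratios). Here LPS+dNC lay below LPS alone (log2 difference -0.83, SE 0.187, adjusted p = 0.000624), so the rise of LPS+siAtg5 was smaller when set against LPS alone (log2 difference 1.16, SE 0.167, adjusted p = 1.64e-06). On the GENCODE annotation 52.6% of Acaca's longest transcript is shared, in stretches of 50 bases, with the predicted gene Gm5182, and its level is uncertain to that extent. Acacb, the form at the mitochondrial surface whose malonyl-CoA restrains carnitine palmitoyltransferase, was close to absent. It read 0.1, 0.32, 0.09, 0.11 and 0.33 FPKM in LPS+siAtg5, the highest group, against 0.01, 0.01 and 0.04 FPKM in LPS+dNC, and at most 0.03 FPKM in any other library, and was not tested.

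Fasn encodes fatty acid synthase, which assembles palmitate. It was at 8.69, 9.08, 8.43, 8.72 and 9.24 FPKM in the LPS+siAtg5 libraries, against 0.41, 1.97 and 1.48 FPKM in LPS+dNC. The groups were far apart (log2 difference 2.17, SE 0.187, adjusted p = 3.98e-10, 1.93 with median-of-ratios), and LPS+siAtg5 was also above LPS alone (log2 difference 1.33, SE 0.187, adjusted p = 1.14e-06), which in turn was above LPS+dNC (log2 difference -0.84, SE 0.209, adjusted p = 0.00157 for LPS+dNC against LPS). The 2 added agents moved it less. With Baf A1 it was at 4.17, 5.37, 4.13, 4.37 and 4.63 FPKM, with CLA at 2.08 to 4.19 (median 4.03) FPKM and with LPS alone at 3.53, 3.35 and 2.01 FPKM. The difference with Baf A1 was called (log2 difference 0.50, SE 0.187, adjusted p = 0.0259), but not without LPS replicate 3, the lowest of its group (0.31, adjusted p = 0.197), without LPS+Baf A1 replicate 2, the highest of its group (0.45, adjusted p = 0.0586), or with a pseudocount of 0.1 (adjusted p = 0.0808). That with CLA was not (log2 difference 0.24, SE 0.181, adjusted p = 0.259). The difference of LPS+siAtg5 from LPS+dNC exceeded that of LPS+Baf A1 from LPS alone (log2 difference -1.67, SE 0.264, adjusted p = 7.36e-06 for the Baf A1 effect minus the siAtg5 effect). Here and below, effect means the difference of a group from its own comparator, and its cause was not tested.

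**Figure D2:**
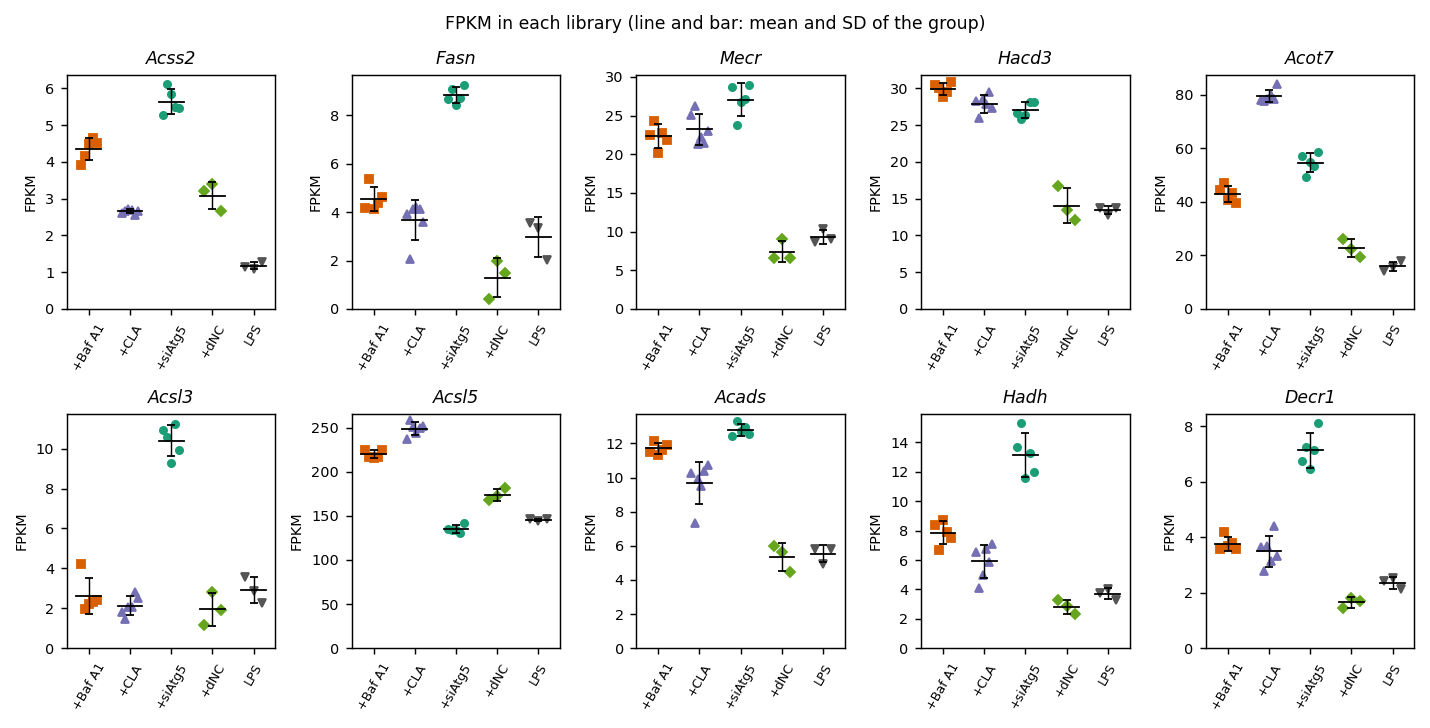
FPKM of 10 of the genes in each library, by group, with the mean (line) and SD (bar); every group received LPS, and +Baf A1, +CLA, +siAtg5 and +dNC name what was added. Acss2, Mecr, Hacd3, Acot7, Acads, Hadh and Decr1 were called higher in each treated group than in its comparator. By mean, Acss2, Fasn, Mecr, Acsl3, Acads, Hadh and Decr1 were highest in LPS+siAtg5, and Acsl5 was highest with CLA and lowest in LPS+siAtg5.

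Promoter windows from 250 bases before to 50 after the transcription start were available from RefSeq (build GRCm38.p6) for 32 of the 35 genes, all but Acaa2, Decr1 and Mcat, and were searched on both strands. Synthesis genes are classically under sterol regulatory elements and oxidation genes under PPAR and ERR elements. None of the 32 windows held the sterol regulatory letters TCACNCCAC, found in 1.24% of all 32851 windows, the PPAR pair of AGGTCA half-sites spaced by 1 base, found in 0.0396%, or the ERR letters TCAAGGTCA, found in 0.423%. Letters this rare would be missing from most sets of 32 windows, and no other spelling was searched. Their absence therefore does not show that these genes lack such elements. The CCAAT box was in 18 of the 32 windows (56.2%, against 37.4% of all windows). The element of the nuclear respiratory factor NRF1, a factor of mitochondrial genes, which reads GCGCA, any base, GCGC, was in 5 (15.6%, against 4.6%), those of Fasn, Hacd3, Oxsm, Etfb and Etfdh. The E-box CACGTG was in the window of Hacd3 alone (3.12%, against 7.15%). Fasn is shown because it holds the CCAAT and NRF1 elements and is a gene of synthesis, on the minus strand of chr11:120824498-120824797; capitals mark the CCAAT box (CCAAT, or ATTGG on the other strand) and the NRF1 element (here GCGCTTGCGC), and the last 50 bases lie at and after the start.
Fasn: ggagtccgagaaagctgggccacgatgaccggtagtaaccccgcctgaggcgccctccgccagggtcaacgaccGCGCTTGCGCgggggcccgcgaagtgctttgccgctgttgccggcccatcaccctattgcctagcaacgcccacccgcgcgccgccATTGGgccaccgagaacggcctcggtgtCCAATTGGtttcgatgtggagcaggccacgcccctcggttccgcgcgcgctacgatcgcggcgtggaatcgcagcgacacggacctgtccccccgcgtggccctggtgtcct
The match is one of letters only, and no binding was measured.

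Mitochondria hold a small fatty acid synthesis pathway of their own, which makes the precursor of lipoic acid. Mecr, the enoyl reductase that ends each of its cycles, was at 22.5, 24.4, 20.2, 22.8 and 21.9 FPKM with Baf A1, at 21.3 to 26.3 (median 22.6) FPKM with CLA and at 8.6, 10.3 and 9.06 FPKM with LPS alone. The means were 2.39 times that of LPS with Baf A1 (log2 difference 1.18, SE 0.0903, adjusted p = 2.59e-10) and 2.49 times with CLA (log2 difference 1.23, SE 0.0875, adjusted p = 3.78e-11), with no overlap between libraries. It was at 28.7, 23.8, 26.7, 27.1 and 29 FPKM in LPS+siAtg5, and at 6.6, 9.02 and 6.59 FPKM in LPS+dNC (log2 difference 1.75, SE 0.0903, adjusted p = 4.89e-14, 1.45 with median-of-ratios). Oxsm, the ketoacyl synthase of the pathway, averaged 3.82 ± 0.486, 3.75 ± 0.4, 4.33 ± 0.324, 4.14 ± 0.0473 and 3.76 ± 0.819 FPKM (SD) with Baf A1, with CLA, in LPS+siAtg5, in LPS+dNC and with LPS alone, and was called in none of the 3 comparisons. Its difference lay between -0.18 to 0.24 (95% interval, log2) with Baf A1, -0.20 to 0.21 with CLA and -0.16 to 0.26 in LPS+siAtg5, where it turned to -0.21 with median-of-ratios (adjusted p = 0.0432). Mcat, which loads malonyl groups onto the carrier protein, averaged 7.25 ± 0.34 FPKM with Baf A1 and 5.47 ± 1.03 FPKM with LPS alone (log2 difference 0.36, SE 0.0991, adjusted p = 0.00347), a call lost without LPS replicate 2 (0.24, adjusted p = 0.0548). Mcat was at 5.56 ± 0.673 FPKM with CLA (log2 difference 0.024, SE 0.0959, adjusted p = 0.844). In LPS+siAtg5 against LPS+dNC its difference of 0.25 (adjusted p = 0.0235) turned to -0.029 with median-of-ratios.

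Of the 4 genes of the elongation cycle, 3 rose with Baf A1, and 4 with CLA and in LPS+siAtg5, also with median-of-ratios. They encode the ketoacyl reductase Hsd17b12, the dehydratases Hacd2 and Hacd3 and the enoyl reductase Tecr. Among all genes tested, 32.7% were called higher with Baf A1, 40.4% with CLA and 59.6% in LPS+siAtg5. Hacd3 was at 30.4, 30.1, 28.8, 29.5 and 30.9 FPKM with Baf A1, at 25.9 to 29.5 (median 28.1) FPKM with CLA and at 13.8, 12.8 and 13.8 FPKM with LPS alone (log2 difference 1.10, SE 0.0661, adjusted p = 4.88e-12 with Baf A1 and 1.00, SE 0.064, adjusted p = 6.12e-12 with CLA). All libraries of both treatments lay far above every library of LPS alone. LPS+siAtg5 had 26.7, 25.8, 26.4, 28.1 and 28.2 FPKM, against 16.6, 13.4 and 12.1 FPKM in LPS+dNC (log2 difference 0.91, SE 0.0661, adjusted p = 1.99e-11, 0.60 with median-of-ratios). Hsd17b12 was the most abundant of the synthesis genes, with 122 to 130.2 (median 127) FPKM in LPS+CLA and 76.9, 77.1 and 86.3 FPKM in LPS alone (log2 difference 0.66, SE 0.038, adjusted p = 1.01e-12). It averaged 111 ± 1.87 FPKM with Baf A1 (log2 difference 0.47, SE 0.0393, adjusted p = 9.43e-10), and 121 ± 3.46 FPKM in LPS+siAtg5 against 81.5 ± 0.642 FPKM in LPS+dNC (log2 difference 0.56, SE 0.0393, adjusted p = 1.08e-11, 0.24 with median-of-ratios). Its replicates were tight and no groups overlapped in these comparisons.

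Hacd2 set the treatments apart. It was at 8.2, 8.84, 8.45, 9.05 and 9.7 FPKM in LPS+siAtg5, against 4.33, 4.41 and 4.29 FPKM in LPS+dNC (log2 difference 0.88, SE 0.0609, adjusted p = 8.14e-12, 0.60 with median-of-ratios). With CLA it averaged 6.14 ± 0.308 FPKM and with LPS alone 4.71 ± 0.31 FPKM (log2 difference 0.32, SE 0.059, adjusted p = 5.33e-05), while with Baf A1 it averaged 5.09 ± 0.302 FPKM (log2 difference 0.093, SE 0.0609, adjusted p = 0.2) and was not called. The Baf A1 effect was below the siAtg5 effect (log2 difference -0.79, SE 0.0862, adjusted p = 3.72e-08). Tecr averaged 58.8 ± 2.25 FPKM with Baf A1, 61.8 ± 4.2 FPKM with CLA and 39.2 ± 1.95 FPKM with LPS alone, and 72.1 ± 2.48 FPKM in LPS+siAtg5 against 43.5 ± 8.49 FPKM in LPS+dNC. It was called higher in each comparison (log2 difference 0.57 with Baf A1, 0.64 with CLA and 0.73 in LPS+siAtg5, the last 0.41 with median-of-ratios).

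Acyl-CoA thioesterases release fatty acids from coenzyme A. Acot7, the brain form of the cytosol, with a preference for arachidonoyl-CoA, rose more with CLA than any other of the 35 genes. It was at 77.8 to 84.1 (median 78.5) FPKM in LPS+CLA, at 44.6, 47, 40.9, 43.5 and 39.5 FPKM in LPS+Baf A1 and at 14.2, 15.5 and 17.9 FPKM in LPS alone. The 3 groups did not overlap, and the mean was 5.01 times that of LPS with CLA (log2 difference 2.26, SE 0.0758, adjusted p = 1.43e-16) and 2.72 times with Baf A1 (log2 difference 1.39, SE 0.0783, adjusted p = 1.69e-12). CLA also exceeded Baf A1 directly (log2 difference 0.87, SE 0.0649, adjusted p = 1.79e-10). Acot7 was at 57.1, 49.2, 54.8, 53.6 and 58.7 FPKM in LPS+siAtg5, against 26.3, 22.5 and 19.5 FPKM in LPS+dNC (log2 difference 1.23, SE 0.0783, adjusted p = 1.8e-12, 0.92 with median-of-ratios). Acot9, of mitochondria, rose in each comparison, with 28.4 ± 1.55 FPKM with Baf A1, 31 ± 0.844 FPKM with CLA and 21.1 ± 2.85 FPKM with LPS alone (log2 difference 0.42 and 0.54), and 29.5 ± 1.89 FPKM in LPS+siAtg5 against 22.9 ± 1.78 FPKM in LPS+dNC (0.35, and 0.035, adjusted p = 0.656, with median-of-ratios). It shares 20.2% of its transcript with Acot10.

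Acot1 and Acot2, neighbouring copies that act in the cytosol and in mitochondria, differed in LPS+siAtg5. Both reached 1 FPKM only in the 5 LPS+siAtg5 libraries and passed the filter through them alone. A rise there was thus favoured in advance, and their p-values for LPS+siAtg5 add no support. Acot1 was at 4.45, 5.57, 4.12, 7.89 and 4.92 FPKM in LPS+siAtg5, against 0.04, 0.11 and 0 FPKM in LPS+dNC. Every LPS+siAtg5 library was far above the highest value elsewhere, 0.38 FPKM in an LPS+CLA library (log2 difference 2.58, SE 0.139, adjusted p = 1.08e-13, 2.40 with median-of-ratios). Because the LPS+dNC values are near or at 0, the difference depends on the pseudocount and came to 5.22 with 0.1, and no ratio is given. Acot2 was at 1.28, 1.21, 1.03, 1.49 and 1.37 FPKM in LPS+siAtg5, and at 0.38, 0.58 and 0.35 FPKM in LPS+dNC (log2 difference 0.66, SE 0.104, adjusted p = 4.28e-06, 0.52 with median-of-ratios, 1.37 with a pseudocount of 0.1), and its sign turned under quantile normalization (-0.16, adjusted p = 0.114). Baf A1 and CLA left both uncalled, with log2 differences of -0.11 and -0.052 for Acot1 and 0.0072 and -0.12 for Acot2. Of the Acot1 transcript 17.6% is shared with Acot2, and of Acot2's 24.5% with Acot1.

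Long-chain acyl-CoA synthetases activate fatty acids, and the 3 listed did not move together. Acsl5, found at mitochondria and the endoplasmic reticulum, was the most abundant of the 35 genes. It was at 225, 217, 216, 217 and 225 FPKM with Baf A1, at 238 to 259 (median 250.1) FPKM with CLA and at 146, 145 and 146 FPKM with LPS alone. Both treated groups lay above LPS alone without overlap (log2 difference 0.59, SE 0.0377, adjusted p = 1.28e-11 with Baf A1 and 0.77, SE 0.0365, adjusted p = 3.81e-14 with CLA). In LPS+siAtg5 it was at 135, 134, 134, 131 and 142 FPKM, against 167, 173 and 181 FPKM in LPS+dNC, a fall (log2 difference -0.36, SE 0.0377, adjusted p = 8.98e-09, -0.68 with median-of-ratios). It also fell against LPS alone (log2 difference -0.11, SE 0.0377, adjusted p = 0.0131), and the Baf A1 and siAtg5 effects differed (log2 difference 0.95, SE 0.0533, adjusted p = 6.91e-13 for the Baf A1 effect minus the siAtg5 effect).

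Acsl4, which prefers arachidonic acid, was the gene that fell with both added agents. It was at 34.7, 30.3, 32.8, 32.4 and 32.8 FPKM with Baf A1, at 33.7 to 38.7 (median 34.3) FPKM with CLA and at 41.8, 40.3 and 37.3 FPKM with LPS alone. The libraries with Baf A1 lay below those of LPS alone (log2 difference -0.28, SE 0.06, adjusted p = 0.0004). Those with CLA overlapped them through replicate 2, the highest of its group (log2 difference -0.18, SE 0.0581, adjusted p = 0.00861), and the call was lost without LPS replicate 1 (-0.15, adjusted p = 0.0618). LPS+siAtg5 and LPS+dNC averaged 25.5 ± 0.683 and 26.6 ± 2.98 FPKM and were not called apart (log2 difference -0.055, SE 0.06, adjusted p = 0.403), but were with median-of-ratios (-0.37, adjusted p = 2.09e-05), and both lay below LPS alone (-0.62 and -0.57). Acsl3, linked to lipid droplets, was at 11, 10.6, 9.3, 11.2 and 9.92 FPKM in LPS+siAtg5, against 1.15, 2.8 and 1.92 FPKM in LPS+dNC (log2 difference 1.98, SE 0.174, adjusted p = 5.18e-10, 1.72 with median-of-ratios). The highest value elsewhere was 4.23 FPKM in LPS+Baf A1 replicate 1, and neither Baf A1 (mean 2.63 FPKM, log2 difference -0.13, SE 0.174, adjusted p = 0.563) nor CLA (mean 2.12 FPKM, log2 difference -0.33, SE 0.169, adjusted p = 0.0958) was called apart from LPS alone on the deposited scale (mean 2.92 FPKM). With CLA, Acsl3 was called lower in 5 of 31 alternatives, among them median-of-ratios (-0.43, adjusted p = 0.0233), quantile normalization (adjusted p = 0.0198) and leaving out LPS replicate 3.

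Cpt2, which turns carnitine esters back into acyl-CoA inside mitochondria, went opposite ways. It was at 5.67, 6.39, 6.7, 6.1 and 7.52 FPKM with Baf A1 and at 4.42, 4.15 and 4.98 FPKM with LPS alone, without overlap (log2 difference 0.44, SE 0.0867, adjusted p = 0.000169). In LPS+siAtg5 it was at 5.82, 6.25, 6.32, 6.22 and 7.44 FPKM, against 7.89, 7.66 and 7.8 FPKM in LPS+dNC, a fall (log2 difference -0.25, SE 0.0867, adjusted p = 0.0118, -0.53 with median-of-ratios). LPS+dNC was itself the highest group, above LPS alone (log2 difference 0.67, SE 0.0969, adjusted p = 3.12e-06), and LPS+siAtg5 was higher than LPS alone (log2 difference 0.42, SE 0.0867, adjusted p = 0.000132, 0.12 and adjusted p = 0.237 with median-of-ratios). With CLA it averaged 5.2 ± 0.601 FPKM (log2 difference 0.17, SE 0.0839, adjusted p = 0.0876).

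Acyl-CoA dehydrogenases take the first step of each turn of oxidation, and Acads, Acadm, Acadl and Acadvl serve short, medium, long and very long chains. All 4 were called higher in each of the 3 comparisons, where 32.7% (Baf A1), 40.4% (CLA) and 59.6% (LPS+siAtg5) of all genes were. With median-of-ratios 3 were called higher with CLA and 3 in LPS+siAtg5, in both cases all but Acadl. Acads was at 11.5, 12.2, 11.3, 11.6 and 11.9 FPKM with Baf A1, at 7.33 to 10.7 (median 10.1) FPKM with CLA and at 5.81, 4.96 and 5.84 FPKM with LPS alone. Neither treated group overlapped LPS alone (log2 difference 0.96, SE 0.0896, adjusted p = 5.6e-09 with Baf A1 and 0.70, SE 0.0867, adjusted p = 2.68e-07 with CLA), and replicate 2 was the lowest with CLA. Acads was at 12.4, 13.3, 12.7, 13 and 12.6 FPKM in LPS+siAtg5, against 6, 5.65 and 4.44 FPKM in LPS+dNC (log2 difference 1.12, SE 0.0896, adjusted p = 9.41e-11, 0.83 with median-of-ratios).

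Acadvl rose more with CLA than with Baf A1, at 39.1 to 46.8 (median 44.4) FPKM against 20.5, 21.5 and 23.4 FPKM with LPS alone (log2 difference 0.97, SE 0.0643, adjusted p = 1.02e-11). With Baf A1 it averaged 28.6 ± 0.611 FPKM (log2 difference 0.38, SE 0.0664, adjusted p = 4.21e-05), and CLA exceeded Baf A1 (log2 difference 0.60, SE 0.0551, adjusted p = 5.66e-09). It was at 34.9, 33.6, 35.3, 33.5 and 36 FPKM in LPS+siAtg5, against 17.7, 18.3 and 14.1 FPKM in LPS+dNC (log2 difference 1.02, SE 0.0664, adjusted p = 2.9e-12, 0.71 with median-of-ratios). The annotation places 377 of its exon bases opposite Dvl2 on the other strand, and no source used here gives the strand setting of the counting, so reads of the 2 genes cannot be told apart there. Acadm was at 17.2, 17.8, 17.1, 17.3 and 16.7 FPKM in LPS+siAtg5, against 8.04, 7.21 and 6.08 FPKM in LPS+dNC (log2 difference 1.18, SE 0.0663, adjusted p = 2.29e-13, 0.88 with median-of-ratios). Part of that gap lay in LPS+dNC, which was below LPS alone (log2 difference -0.48, SE 0.0741, adjusted p = 8.45e-06), and LPS+siAtg5 exceeded LPS alone by 0.70 (adjusted p = 2.79e-09). Acadm averaged 13.8 ± 0.495 FPKM with Baf A1 and 15.3 ± 1.1 FPKM with CLA, against 10.2 ± 0.41 FPKM with LPS alone (log2 difference 0.39 and 0.53). Acadl averaged 23.2 ± 0.778 FPKM with Baf A1, 19.9 ± 3.08 FPKM with CLA and 16.3 ± 1.23 FPKM with LPS alone (log2 difference 0.48, SE 0.0979, adjusted p = 0.000214 with Baf A1 and 0.26, SE 0.0947, adjusted p = 0.0216 with CLA). Its call with CLA was lost in 6 of 31 alternatives, among them without LPS replicate 1 (0.2, adjusted p = 0.123) and without LPS+CLA replicate 3 (adjusted p = 0.0504). In LPS+siAtg5 it averaged 30.5 ± 0.899 FPKM against 25.8 ± 2.58 FPKM in LPS+dNC (log2 difference 0.24, SE 0.0979, adjusted p = 0.0294). That call was lost without LPS+dNC replicate 1 (0.18), LPS+dNC replicate 2 (0.22) or LPS+siAtg5 replicate 3 (0.22) and turned to -0.075 with median-of-ratios.

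Electrons from these dehydrogenases pass to the electron transfer flavoprotein, a pair of subunits encoded by Etfa and Etfb, and from there through Etfdh to ubiquinone. Of the 3 genes Etfb changed most. It was at 29.9, 30.7, 29, 28.6 and 28.8 FPKM with Baf A1, at 32.1 to 50.5 (median 47.5) FPKM with CLA and at 16.8, 17.1 and 18.1 FPKM with LPS alone. The 3 groups were separate (log2 difference 0.73, SE 0.104, adjusted p = 2.8e-06 with Baf A1 and 1.33, SE 0.1, adjusted p = 1.07e-10 with CLA), and CLA was above Baf A1 (log2 difference 0.60, SE 0.0859, adjusted p = 3.91e-06). Etfb was at 35.5, 38.9, 38.7, 38.6 and 44.4 FPKM in LPS+siAtg5, against 20.9, 23.3 and 18.6 FPKM in LPS+dNC (log2 difference 0.88, SE 0.104, adjusted p = 6.51e-08, 0.56 with median-of-ratios). On the annotation 67.3% of its transcript is shared with the overlapping predicted gene Gm45233, and its level is uncertain to that extent.

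Etfa moved little beside it, with 31.2 ± 1.39 FPKM with Baf A1, 34.2 ± 2.79 FPKM with CLA and 30 ± 1.62 FPKM with LPS alone (log2 difference 0.055, SE 0.0587, adjusted p = 0.446 with Baf A1 and 0.18, SE 0.0568, adjusted p = 0.00876 with CLA). The call with CLA was lost without LPS replicate 2 (0.14, adjusted p = 0.07), with median-of-ratios (0.04, adjusted p = 0.558) and in 2 further alternatives. Etfa averaged 37.4 ± 1.16 FPKM in LPS+siAtg5, against 27.1 ± 0.45 FPKM in LPS+dNC (log2 difference 0.45, SE 0.0587, adjusted p = 3.08e-07, 0.13 with median-of-ratios). Etfdh was at 9.37 ± 0.911 FPKM with Baf A1, where it was not called (log2 difference 0.11, SE 0.0604, adjusted p = 0.138), at 12.3 ± 0.346 FPKM with CLA (log2 difference 0.47, SE 0.0585, adjusted p = 3.23e-07) and at 8.61 ± 0.37 FPKM with LPS alone. It rose in LPS+siAtg5, at 13.5 ± 0.587 FPKM against 9.44 ± 0.441 FPKM in LPS+dNC (log2 difference 0.47, SE 0.0604, adjusted p = 2.13e-07, 0.17 with median-of-ratios). The FPKM ratio of Etfb to Etfa, chosen after the values were seen and given with no test, was 0.904 to 1 with Baf A1, 1.1 to 1.5 with CLA and 0.558 to 0.603 with LPS alone, and 0.968 to 1.24 in LPS+siAtg5 against 0.681 to 0.875 in LPS+dNC. No library of a treated group had a ratio as low as any library of its comparator.

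The promoter windows of these 3 genes are shown because their mRNAs, of partner proteins, moved unequally. They lie at chr9:55512194-55512493 on the minus strand (Etfa), chr7:43443822-43444121 on the plus strand (Etfb) and chr3:79628718-79629017 on the minus strand (Etfdh), with the same elements in capitals.
Etfa: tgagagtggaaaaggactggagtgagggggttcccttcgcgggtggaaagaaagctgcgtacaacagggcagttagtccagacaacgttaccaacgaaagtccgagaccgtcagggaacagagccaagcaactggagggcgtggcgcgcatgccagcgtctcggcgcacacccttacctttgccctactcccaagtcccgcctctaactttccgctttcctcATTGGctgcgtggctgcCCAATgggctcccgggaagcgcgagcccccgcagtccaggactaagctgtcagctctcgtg
Etfb: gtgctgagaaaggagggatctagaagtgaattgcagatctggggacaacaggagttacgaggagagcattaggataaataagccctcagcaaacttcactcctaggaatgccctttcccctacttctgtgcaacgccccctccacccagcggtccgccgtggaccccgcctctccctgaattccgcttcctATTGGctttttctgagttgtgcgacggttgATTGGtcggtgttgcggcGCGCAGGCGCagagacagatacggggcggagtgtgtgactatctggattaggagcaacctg
Etfdh: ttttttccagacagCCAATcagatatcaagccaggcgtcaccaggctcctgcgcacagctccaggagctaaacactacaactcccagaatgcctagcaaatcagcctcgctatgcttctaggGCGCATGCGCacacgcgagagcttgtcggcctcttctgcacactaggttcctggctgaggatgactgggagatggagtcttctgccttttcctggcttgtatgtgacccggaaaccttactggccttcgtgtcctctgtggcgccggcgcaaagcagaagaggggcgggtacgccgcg
Each window holds the CCAAT box on at least 1 strand, and those of Etfb and Etfdh, but not that of Etfa, also hold the NRF1 element (GCGCAGGCGC and GCGCATGCGC).

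The following steps are run by the hydratase Echs1 and the hydroxyacyl dehydrogenase Hadh for shorter chains, and by the trifunctional protein for longer ones, whose alpha and beta subunits are encoded by Hadha and Hadhb. All 5 genes of the hydratase, dehydrogenase and thiolase steps rose with Baf A1 and in LPS+siAtg5, and 4, all but Echs1, with CLA. Of all genes 32.7% were called higher with Baf A1, 59.6% in LPS+siAtg5 and 40.4% with CLA. With median-of-ratios LPS+siAtg5 had 4 of the 5 higher and 1, Hadha, lower. Hadh was at 8.37, 6.69, 8.7, 7.93 and 7.53 FPKM with Baf A1, at 4.12 to 7.07 (median 6.23) FPKM with CLA and at 3.77, 4.03 and 3.29 FPKM with LPS alone (log2 difference 0.91, SE 0.125, adjusted p = 1.68e-06 with Baf A1 and 0.54, SE 0.121, adjusted p = 0.000476 with CLA). No treated library fell within the range of LPS alone, although LPS+CLA replicate 2 came close to it. Hadh was at 13.7, 15.3, 11.6, 13.3 and 12 FPKM in LPS+siAtg5, against 3.27, 2.9 and 2.33 FPKM in LPS+dNC (log2 difference 1.89, SE 0.125, adjusted p = 3.64e-12, 1.61 with median-of-ratios). The siAtg5 effect exceeded the Baf A1 effect (log2 difference -0.98, SE 0.176, adjusted p = 3.82e-05 for the Baf A1 effect minus the siAtg5 effect).

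Echs1 parted the 2 added agents. It averaged 24.9 ± 1.02 FPKM with Baf A1, 17.1 ± 1.38 FPKM with CLA and 15.8 ± 1.03 FPKM with LPS alone. It rose with Baf A1 (log2 difference 0.62, SE 0.0823, adjusted p = 9.99e-07), and the difference with CLA did not pass the test (log2 difference 0.11, SE 0.0797, adjusted p = 0.236), except without the 3 libraries that lay apart (0.2, adjusted p = 0.0112) or with array weights (0.2, adjusted p = 0.0027). CLA was below Baf A1 (log2 difference -0.51, SE 0.0683, adjusted p = 1.29e-06). In LPS+siAtg5 Echs1 averaged 27 ± 1.09 FPKM, against 14.6 ± 2.66 FPKM in LPS+dNC (log2 difference 0.86, SE 0.0823, adjusted p = 2.11e-09, 0.55 with median-of-ratios).

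Hadhb, the thiolase subunit, was at 28.5, 28.6, 27.6, 27.2 and 27.8 FPKM with Baf A1, at 29 to 36.1 (median 33.7) FPKM with CLA and at 18.4, 18.2 and 20.5 FPKM with LPS alone (log2 difference 0.53, SE 0.0547, adjusted p = 2.6e-08 with Baf A1 and 0.77, SE 0.0529, adjusted p = 1.94e-11 with CLA). Each treated library was above every library of LPS alone. It was at 32.6, 32, 30.9, 30.6 and 31.4 FPKM in LPS+siAtg5, against 16.4, 17.5 and 16.6 FPKM in LPS+dNC (log2 difference 0.87, SE 0.0547, adjusted p = 1.66e-12, 0.55 with median-of-ratios). Hadha, its partner, rose less, at 34.1 ± 0.94 FPKM with Baf A1, 35.2 ± 1.17 FPKM with CLA and 26.6 ± 0.508 FPKM with LPS alone (log2 difference 0.35, SE 0.0398, adjusted p = 1.42e-07 with Baf A1 and 0.39, SE 0.0385, adjusted p = 9.4e-09 with CLA). In LPS+siAtg5 Hadha averaged 30.4 ± 0.71 FPKM, against 27.2 ± 1.11 FPKM in LPS+dNC (log2 difference 0.16, SE 0.0398, adjusted p = 0.00093), a sign that turned with median-of-ratios (-0.15, adjusted p = 0.00175). The FPKM ratio of Hadhb to Hadha, also chosen after the values were seen, was 0.78 to 0.853 with Baf A1, 0.842 to 1.05 with CLA and 0.679 to 0.787 with LPS alone, and 1.01 to 1.07 in LPS+siAtg5 against 0.599 to 0.634 in LPS+dNC. It overlapped LPS alone with Baf A1 and not with CLA.

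**Figure D3:**
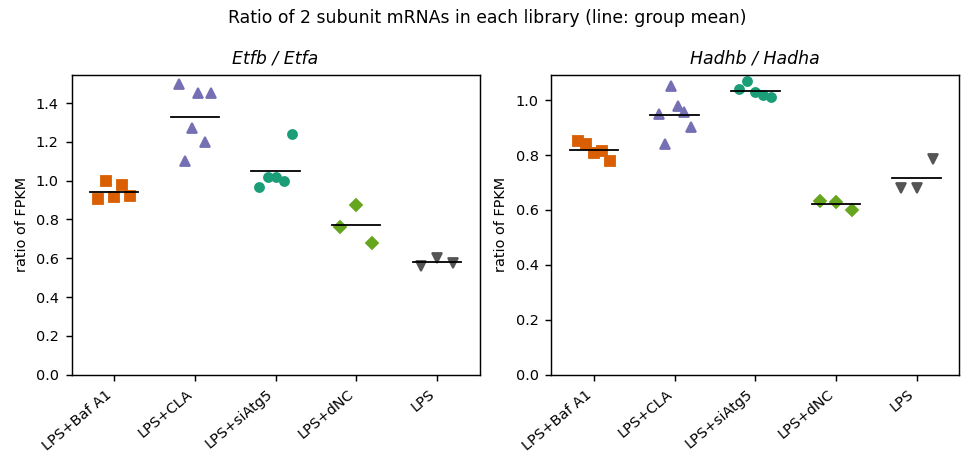
Ratio of the FPKM of the 2 subunit mRNAs of the electron transfer flavoprotein (Etfb to Etfa) and of the trifunctional protein (Hadhb to Hadha) in each library, by group, with the group mean as a line. Etfb to Etfa was highest with CLA, at 1.1 to 1.5, and lowest with LPS alone, at 0.558 to 0.603, and Hadhb to Hadha was highest in LPS+siAtg5, at 1.01 to 1.07, and lowest in LPS+dNC, at 0.599 to 0.634.

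Hadha and Hadhb are transcribed away from each other from starts 273 bases apart, so that their RefSeq promoter windows share 228 bases. The window of Hadhb, chr5:30155003-30155302 on the plus strand, is shown because this shared stretch precedes 2 mRNAs that changed by unequal amounts, and it holds none of the 6 motifs searched, hence no capitals.
Hadhb: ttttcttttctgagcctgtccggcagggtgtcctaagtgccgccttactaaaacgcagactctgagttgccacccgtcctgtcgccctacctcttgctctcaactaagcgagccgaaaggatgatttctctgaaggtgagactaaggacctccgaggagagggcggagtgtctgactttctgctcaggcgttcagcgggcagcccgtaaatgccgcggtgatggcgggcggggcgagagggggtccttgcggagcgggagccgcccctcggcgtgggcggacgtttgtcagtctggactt
Acaa2, the thiolase for shorter chains, averaged 8.71 ± 0.547 FPKM with Baf A1, 8.57 ± 0.808 FPKM with CLA and 6 ± 0.57 FPKM with LPS alone (log2 difference 0.47 and 0.45), and 9.96 ± 0.746 FPKM in LPS+siAtg5 against 6.59 ± 0.524 FPKM in LPS+dNC (0.53, 0.24 with median-of-ratios), and was called higher each time.

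Unsaturated fatty acids need auxiliary enzymes, the enoyl-CoA isomerases Eci1 and Eci2 and the dienoyl-CoA reductase Decr1, and all 3 were called higher in each comparison. So were 32.7% of all genes with Baf A1, 40.4% with CLA and 59.6% in LPS+siAtg5. In the last, 2 of the 3 were called higher with median-of-ratios. Eci2 was at 25.9, 27.6, 26.2, 29.1 and 28.1 FPKM with Baf A1 and at 13, 16.9 and 16.8 FPKM with LPS alone, without overlap (log2 difference 0.79, SE 0.0793, adjusted p = 1.92e-08). With CLA it was at 15.8 to 21 (median 20.4) FPKM, overlapping LPS alone through replicate 2 (log2 difference 0.32, SE 0.0767, adjusted p = 0.00102), and without LPS replicate 1 the difference came to 0.2 (adjusted p = 0.026). LPS+dNC was above LPS alone for Eci2 (log2 difference 0.53, SE 0.0886, adjusted p = 2.45e-05), and LPS+siAtg5, at 32.2 ± 0.946 FPKM, was above LPS+dNC, at 22.7 ± 0.74 FPKM (log2 difference 0.49, SE 0.0793, adjusted p = 7.12e-06, 0.17 with median-of-ratios). Decr1 was at 6.74, 7.25, 6.46, 7.14 and 8.12 FPKM in LPS+siAtg5, against 1.44, 1.82 and 1.72 FPKM in LPS+dNC (log2 difference 1.61, SE 0.0927, adjusted p = 3.22e-13, 1.36 with median-of-ratios). With CLA it was at 2.78 to 4.41 (median 3.48) FPKM, against 2.41, 2.54 and 2.12 FPKM with LPS alone (log2 difference 0.42, SE 0.0898, adjusted p = 0.000338), and with Baf A1 it averaged 3.77 ± 0.253 FPKM (log2 difference 0.51, SE 0.0927, adjusted p = 6.81e-05). For Decr1, LPS+siAtg5 and LPS+dNC were far apart. Libraries with Baf A1, at 3.57 to 4.19 FPKM, lay clear of LPS alone, and the lowest with CLA lay just above it. Eci1 averaged 8.31 ± 0.663 FPKM with Baf A1, 7.34 ± 0.746 FPKM with CLA and 5.44 ± 0.277 FPKM with LPS alone (log2 difference 0.53 and 0.37). In LPS+siAtg5 it averaged 7.83 ± 1.11 FPKM, against 5.71 ± 0.233 FPKM in LPS+dNC (0.39), a call lost with median-of-ratios (0.11, adjusted p = 0.284).

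Taken as sets, synthesis and oxidation genes both rose, and the roles within synthesis differed. The medians of the 2 sets were close with Baf A1 and in LPS+siAtg5 against LPS+dNC. Means per treated library, given below, were higher for synthesis. With Baf A1, 9 of the 11 tested synthesis genes and 14 of the 16 oxidation genes rose and none fell, where 32.7% of all genes were called higher. Median log2 differences were 0.49 for oxidation, 0.50 for synthesis and 0.039 for all genes. With CLA, 8 of 11 synthesis and 14 of 16 oxidation genes rose and none fell, against 40.4% of all genes. The medians were 0.43 for oxidation, 0.64 for synthesis and 0.09 for all genes. In LPS+siAtg5 against LPS+dNC, 10 of 11 synthesis genes rose and none fell, 15 of 16 oxidation genes rose and Cpt2 fell, against 59.6% of all genes called higher. The medians were 0.70 for oxidation, 0.73 for synthesis and 0.34 for all genes. With median-of-ratios, 7 synthesis and 12 oxidation genes were called higher with CLA, and LPS+siAtg5 had 9 synthesis genes higher and 1 lower, and 12 oxidation genes higher and 2 lower. The difference of the 2 medians, oxidation minus synthesis, was -0.006 with Baf A1, -0.207 with CLA, -0.037 in LPS+siAtg5 against LPS+dNC and -0.164 against LPS alone. Within synthesis, the medians of the cytosolic, mitochondrial and elongation genes were 0.73, 0.36 and 0.52 with Baf A1, and 0.49, 0.024 and 0.65 with CLA. In LPS+siAtg5 against LPS+dNC they were 1.35, 0.25 and 0.81 (1.09, -0.0285 and 0.51 with median-of-ratios). These medians are descriptions of the chosen genes and carry no test. The 7 thioesterase and Acsl genes were mixed, with 3 higher and 1 lower with Baf A1, 3 and 1 with CLA, and 5 and 1 in LPS+siAtg5 (4 and 2 with median-of-ratios).

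Within single treated libraries both groups of genes shifted upwards, synthesis by more. The mean log2(FPKM + 1) of the oxidation genes, as a difference from the mean of the LPS libraries, was 0.508 to 0.525 with Baf A1, 0.272 to 0.569 with CLA and -0.039 to 0.038 among the LPS libraries, and 0.740 to 0.825 in LPS+siAtg5 against -0.043 to 0.064 in LPS+dNC. That of the synthesis genes was 0.602 to 0.659 with Baf A1, 0.442 to 0.609 with CLA and -0.061 to 0.048 with LPS alone, and 0.856 to 0.923 in LPS+siAtg5 against -0.139 to 0.037 in LPS+dNC. LPS+CLA replicate 2 was the lowest of its group on both. In every treated library the synthesis mean exceeded the oxidation mean, and in every LPS+dNC library it was the lower. Group means of synthesis and oxidation were 0.623 and 0.516 with Baf A1, and 0.567 and 0.498 with CLA. They were 0.884 and 0.771 in LPS+siAtg5, and -0.074 and 0.028 in LPS+dNC. The gaps were not tested. Summed FPKM of the oxidation genes divided by that of the synthesis genes stayed between 0.92 and 1.12 in all 22 libraries. The abundant genes set this ratio. In LPS alone Hsd17b12, Tecr and Acly averaged 80.1, 39.2 and 35.7 of a synthesis sum of 199 FPKM. Fasn, Acaca and Acss2 averaged 2.96, 3.08 and 1.17 FPKM there, so their changes hardly show in it.

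**Figure D4:**
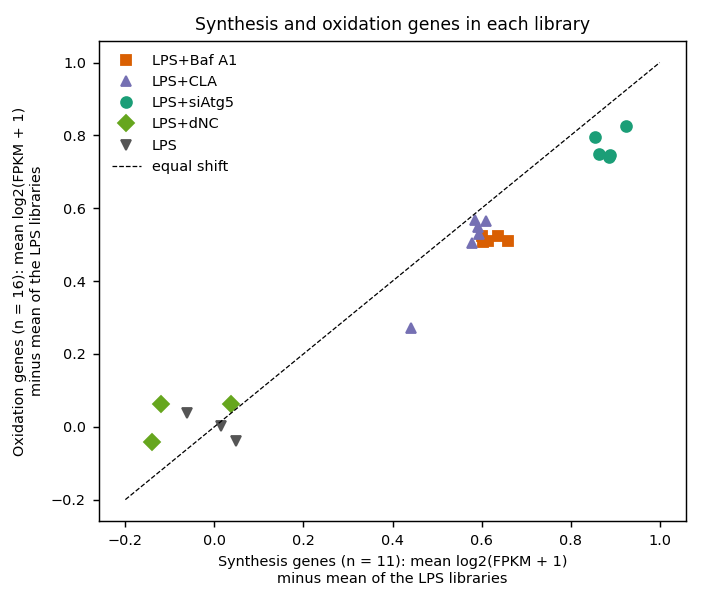
Mean log2(FPKM + 1) of the 11 tested synthesis genes (x axis) and the 16 oxidation genes (y axis) in each library, as a difference from the mean of the LPS libraries; the dashed line marks an equal shift. Treated libraries lie up and to the right of LPS and LPS+dNC and below the line, while those of LPS+dNC lie above it. LPS+CLA replicate 2 is the lowest of the treated libraries, at 0.442 and 0.272.

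By mean FPKM on the deposited scale, LPS+siAtg5 was the highest group for 20 of the 34 tested genes, LPS+CLA for 9, LPS+Baf A1 for 3 and LPS+dNC and LPS for 1 each. This ranking was not made for all genes. In LPS+siAtg5, 69.8% of all genes tested had a log2 difference above 0 against LPS+dNC, and 75% against LPS alone. The lowest group was LPS+dNC for 16 genes and LPS alone for 15. Means at least 2-fold higher than the comparator were seen for 7 of the 34 with Baf A1, 7 with CLA and 13 in LPS+siAtg5, and none of the 34 was at least 2-fold lower in any of them. The 2-fold share among all genes was not computed. Medians over all genes were 0.039 with Baf A1, 0.09 with CLA and 0.34 in LPS+siAtg5 against LPS+dNC. The larger count in LPS+siAtg5 can thus not be read as particular to these genes. Both the 20 and the 13 include Acot1 and Acot2, which passed the filter only through LPS+siAtg5. Acaca, Mecr and Acot7 were at least 2-fold higher in all 3 comparisons.

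CLA and Baf A1 share the LPS libraries as comparator, so those comparisons are not independent, and the 2 treated groups were also compared directly. CLA was higher for 10 of the 34 genes and lower for 9, with 35.4% of all genes tested called higher and 19% lower (54.3% in either direction). The balance turned with the scaling, to 7 higher and 11 lower with median-of-ratios and 8 higher and 12 lower with quantile normalization. Higher with CLA, beside Acot7, Etfb and Acadvl, were Etfdh (12.3 against 9.37 FPKM, log2 difference 0.36, SE 0.0501, adjusted p = 2.35e-06) and Hadhb (33.3 against 27.9 FPKM, log2 difference 0.24, SE 0.0453, adjusted p = 0.000106). Lower with CLA, beside Echs1, were Acss2 (2.65 against 4.34 FPKM, log2 difference -0.55, SE 0.056, adjusted p = 2.85e-08) and Eci2 (19.6 against 27.4 FPKM, log2 difference -0.47, SE 0.0657, adjusted p = 2.79e-06). Acaca, Mecr and Hacd3 were not called apart, with 95% intervals of -0.046 to 0.53, -0.10 to 0.21 and -0.21 to 0.015 on the log2 scale.

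The effects of Baf A1 and siAtg5, each against its own comparator, differed for 21 of the 34 genes. Of these, 5 had the larger value for Baf A1 and 16 for siAtg5. Among all genes 72.7% were called in that test, 20.4% with the larger value for Baf A1 and 52.3% with the larger value for siAtg5. The members' split was 11 and 11 with median-of-ratios and 11 and 14 with quantile normalization. The lean towards siAtg5 thus depended on the scaling. The largest gaps were Acot1 (log2 difference -2.69, SE 0.197, adjusted p = 6.14e-11 for Baf A1 minus siAtg5), Acsl3 (-2.11, SE 0.246, adjusted p = 1.01e-07) and Fasn (-1.67, SE 0.264, adjusted p = 7.36e-06), all with the larger rise in LPS+siAtg5, while Acsl5, Cpt2 and Acss2 (0.59) had the larger value with Baf A1. Acot1 passed the filter only through LPS+siAtg5, so its gap was favoured in advance. LPS+dNC against LPS alone called 6 of the 34 genes higher and 8 lower, where 29% of all genes were called higher and 28.1% lower (57.2% in either direction). Higher in LPS+dNC were Acss2, Cpt2, Acadl, Eci2, Acot7 and Acsl5, and lower were Acaca, Fasn, Mecr, Acsl4, Acadm, Acadvl, Hadhb and Decr1. Against LPS alone, LPS+siAtg5 had 31 genes higher and 2 lower, where 61.2% of all genes were called higher and 15.6% lower (76.8% in either direction), and 25 higher and 3 lower with median-of-ratios.

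Other genes of fatty acid metabolism, listed by function, gave the setting. Among all genes, 32.7% were called higher and 25.1% lower with Baf A1. With CLA these shares were 40.4% and 22.6%, and in LPS+siAtg5 against LPS+dNC 59.6% and 21.6%. Of 16 tested genes of synthesis outside the 35, 10 were higher and 1 lower with Baf A1, 8 and 2 with CLA, and 14 and 1 in LPS+siAtg5 (10 and 2 with median-of-ratios). Me1, the malic enzyme that supplies NADPH for synthesis, was at 8.37 ± 0.588 FPKM with Baf A1, against 2.88 ± 0.0757 FPKM with LPS alone, log2 difference 1.27, adjusted p = 1.08e-11. It was at 11.4 ± 1.2 FPKM with CLA (1.67, adjusted p = 2.64e-14), and at 15.2 ± 0.348 FPKM in LPS+siAtg5, against 2.93 ± 0.447 FPKM in LPS+dNC, log2 difference 2.05, adjusted p = 4.09e-16, 1.77 with median-of-ratios. Mid1ip1, an activator of acetyl-CoA carboxylase, rose with Baf A1 (36.9 ± 3.79 FPKM with Baf A1, against 15.5 ± 1.75 FPKM with LPS alone, log2 difference 1.20, adjusted p = 5.84e-09) and in LPS+siAtg5 (22.3 ± 3.76 FPKM in LPS+siAtg5, against 6.58 ± 0.877 FPKM in LPS+dNC, log2 difference 1.62, adjusted p = 8.09e-12, 1.32 with median-of-ratios). Hacd4, a further dehydratase of elongation, fell with Baf A1 (log2 difference -0.54) and with CLA (-1.14, at 8.94 ± 1.33 FPKM with CLA and 20.7 ± 0.29 FPKM with LPS alone). Ndufab1, the mitochondrial acyl carrier protein, rose with CLA (0.61) and fell in LPS+siAtg5 (-0.36, -0.68 with median-of-ratios).

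Of 18 tested genes of activation, carnitine transport and mitochondrial oxidation outside the 35, 11 were higher and 2 lower with Baf A1, 12 and 1 with CLA, and 11 and 2 in LPS+siAtg5, the last close to the share of all genes and 9 and 6 with median-of-ratios. Cpt1a, which makes the carnitine esters and is regarded as the gate of oxidation, fell with Baf A1 (16.9 ± 0.892 FPKM with Baf A1, against 21.6 ± 2.52 FPKM with LPS alone, log2 difference -0.33, adjusted p = 0.0109). It also fell in LPS+siAtg5 (45.8 ± 1.18 FPKM in LPS+siAtg5, against 54.2 ± 1.8 FPKM in LPS+dNC, log2 difference -0.24, adjusted p = 0.0451, -0.56 with median-of-ratios), where both means were above the 21.6 FPKM of LPS alone. Acsl1, a further acyl-CoA synthetase, fell with CLA (73.8 ± 8.84 FPKM with CLA, against 161 ± 17.1 FPKM with LPS alone, log2 difference -1.11, adjusted p = 9.04e-10) and in LPS+siAtg5 (-0.44, -0.75 with median-of-ratios). Crat, carnitine acetyltransferase, rose with Baf A1 (0.69) and CLA (0.77), and Slc25a20, the carnitine carrier, with CLA (21.1 ± 1.87 FPKM with CLA, against 11.6 ± 1.74 FPKM with LPS alone, log2 difference 0.82, adjusted p = 9.4e-09). Among 14 peroxisomal genes 10 were higher and 1 lower with Baf A1, 9 and 3 with CLA, and 10 and 1 in LPS+siAtg5 (9 and 3 with median-of-ratios). Hsd17b4, which runs the middle steps in peroxisomes, rose with Baf A1 (0.33), with CLA (0.61) and in LPS+siAtg5 (1.24, 0.93 with median-of-ratios), and Phyh, of phytanic acid breakdown, fell with Baf A1 (-0.32) and CLA (-0.40).

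Of 24 regulators, 9 were higher and 5 lower with Baf A1 and 16 and 4 in LPS+siAtg5, both near the share of all genes called higher, and 13 and 3 with CLA. With median-of-ratios the counts were 12 and 8 in LPS+siAtg5 and 11 and 6 with CLA. Srebf1, whose product drives synthesis genes, rose with Baf A1 (14.8 ± 0.902 FPKM with Baf A1, against 9.59 ± 0.242 FPKM with LPS alone, log2 difference 0.57, adjusted p = 1.4e-08). Sirt1, a deacetylase, fell with Baf A1 (2.59 ± 0.208 FPKM with Baf A1, against 5.82 ± 0.509 FPKM with LPS alone, log2 difference -0.92, adjusted p = 4.12e-10) and with CLA (2.84 ± 0.23 FPKM, -0.83, adjusted p = 8.28e-10). In LPS+siAtg5 Scap, the escort of the SREBP factors, rose (15.5 ± 0.796 FPKM in LPS+siAtg5, against 4.55 ± 0.393 FPKM in LPS+dNC, log2 difference 1.57, adjusted p = 2.8e-12, 1.28 with median-of-ratios) and Esrra, a nuclear receptor of oxidation genes, fell (24.6 ± 0.918 FPKM in LPS+siAtg5, against 39.3 ± 2.17 FPKM in LPS+dNC, log2 difference -0.66, adjusted p = 8.96e-09, -0.97 with median-of-ratios). Uptake, storage and lipolysis genes were higher in 13 of 22 and lower in 1 with Baf A1, 11 and 6 with CLA, and 10 and 7 in LPS+siAtg5, a smaller share higher than among all genes. With median-of-ratios more of them were lower than higher in LPS+siAtg5, 11 against 9. Lipa, the lysosomal lipase, rose with Baf A1 (0.88) and CLA (0.77), and Lpl, lipoprotein lipase, with CLA (165 ± 31.6 FPKM with CLA, against 51.9 ± 8.97 FPKM with LPS alone, log2 difference 1.64, adjusted p = 2.73e-09). Fabp3, a fatty acid carrier, fell with CLA (4.06 ± 0.615 FPKM with CLA, against 23.2 ± 5.53 FPKM with LPS alone, log2 difference -2.24, adjusted p = 8.01e-13) and in LPS+siAtg5 (20.3 ± 2.03 FPKM in LPS+siAtg5, against 58.7 ± 13 FPKM in LPS+dNC, log2 difference -1.47, adjusted p = 6.81e-10, -1.78 with median-of-ratios). Fabp7, a carrier of astrocytes and neural precursors, rose in LPS+siAtg5 (87.1 ± 11.9 FPKM in LPS+siAtg5, against 9.79 ± 3.78 FPKM in LPS+dNC, log2 difference 3.08, adjusted p = 8.31e-13, 2.77 with median-of-ratios), beside the astrocyte markers given above.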

How the data were processed

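The measurement is RNA sequencing of 22 libraries in 5 groups, and the title of each library gave its group. Values deposited by the authors are FPKM (fragments scaled to gene length and library size), a unit that 19 column headers state. The 3 LPS+dNC headers state none, and the range of their values is that of FPKM. Their columns sum to 556496 to 575125, above the 469750 to 525127 of the other 19, for a reason that was not tested. The submitters' processing notes list, with no order, StringTie 1.3.1, HISAT2, Bowtie2 2.2.8, fastp 0.18.0 and CASAVA 1.7. Genome build, annotation and strand setting: not given in the sources used here. Read counts were not used, so depth is unknown and no counting interval is given. All 22 single-library files matched their columns exactly. Of 15726 lines for 15725 symbols, Plin2 had 2; the first entered the fit, and Plin2 is left out of the lists.

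The 11070 genes that reached 1 FPKM in 3 or more libraries were analysed as log2(FPKM + 1). A single limma model (version 3.58.1, R 4.3.3) of 5 group means over the 22 libraries, with the trend and robust options of its empirical Bayes step and 17 residual degrees of freedom, gave every comparison. Adjustment was by Benjamini-Hochberg over all genes tested, with a threshold of 0.05. The fit was tested on simulated data. Values per library are given for members at least 2-fold apart by mean, and for the called member with the smallest adjusted p in each role and direction. Of the other lists, up to 3 genes per direction with the smallest adjusted p could be named. The members and lists were chosen with earlier results of these data known. Alternatives were a pseudocount of 0.1, no filter or one of 5 FPKM, median-of-ratios and quantile scaling, array weights, only the groups compared, a replicate block, leaving out each library, and leaving out 3 libraries that lay apart.

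Promoter windows are from RefSeq (GRCm38.p6). Sequence shared between genes, in stretches of 50 bases, and overlapping exons were read from GENCODE M21, whose build is not known to be that of the files. Exons of Acadvl, Mcat, Acss2, Acsl5, Echs1, Etfdh, Eci2, Hadha, Hacd2 and Oxsm also overlap a gene on the opposite strand, and those of Acsl3 and Etfb a gene on the same strand.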

Additional observations from a re-analysis of the deposited data

Results flagged for a closer look

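In groups of 5 and 6 libraries, a single library of 13 of the 105 sets of member values checked lay far from its group mates. Chance alone gives about 1 in 20. Of the 13, 6 were LPS+CLA replicate 2, which had the lowest median gene of its group. It was low for Acly (35.65 FPKM, the others at 40.42 to 42.38), Fasn (2.08, the others at 3.58 to 4.19), Acads (7.33, the others at 9.52 to 10.73), Etfb (32.14, the others at 45.07 to 50.5) and Eci2 (15.81, the others at 19.24 to 21.02), and high for Acsl4 (38.67, the others at 33.7 to 34.65).

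LPS+CLA replicate 6 was high for Acot7 (84.11 FPKM, the others at 77.83 to 80.11) and Hadha (37.47, the others at 34.38 to 35.15), and was listed at 0 for Acacb, where the others were at 0.01. LPS+Baf A1 replicate 1 was high for Acsl3 (4.23 FPKM, the others at 1.97 to 2.4) and low for Acadm (12.89, the others at 13.89 to 14.07). In LPS+siAtg5, replicate 1 was low for Acly (47.5 FPKM, the others at 50.12 to 50.69) and replicate 5 high for Tecr (76.45, the others at 70.5 to 71.52).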

How the results depend on the processing

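The counts of genes called and of members called stayed within 1.5 times the reported count in all 31 alternatives, in each of the 7 comparisons. Leaving out a library in turn, the number of members called ranged from 26 to 28 with Baf A1, from 24 to 27 with CLA and from 31 to 32 in LPS+siAtg5 against LPS+dNC, and was 33 each time in LPS+siAtg5 against LPS. All genes called ranged from 5659 to 6636, from 6371 to 7256, from 8623 to 9125 and from 8149 to 8630 in the same order. Over the remaining alternatives, members called ranged from 26 to 28, from 23 to 29, from 29 to 33 and from 28 to 34.

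The oxidation minus synthesis difference in medians ranged from -0.073 to 0.019 with Baf A1, from -0.242 to -0.156 with CLA, from -0.127 to -0.01 in LPS+siAtg5 against LPS+dNC and from -0.179 to -0.123 in LPS+siAtg5 against LPS when a library was left out. The low end with Baf A1 came without LPS replicate 1, and -0.066 without LPS replicate 2; that of LPS+siAtg5 came without LPS+dNC replicate 1. For LPS+siAtg5 against LPS+dNC it was -0.11 with a pseudocount of 0.1, -0.111 with a filter of 5 FPKM, -0.101 with quantile normalization and -0.127 without the 3 libraries that lay apart. With CLA it was -0.145 with a pseudocount of 0.1, -0.049 with no filter, which adds Acacb, and -0.279 with quantile normalization, and in LPS+siAtg5 against LPS -0.219 with quantile normalization. Other causes were not tested.

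Single genes changed sign in 47 cases, most of them uncalled. With median-of-ratios these were Acot2 (-0.016), Etfa (-0.003) and Oxsm (-0.019) with Baf A1, Echs1 (-0.025), Mcat (-0.098) and Oxsm (-0.106) with CLA, Acadl (-0.075), Hadha (-0.155), Mcat (-0.028) and Oxsm (-0.211) in LPS+siAtg5 against LPS+dNC, and Etfa (-0.036), Hadha (-0.158) and Oxsm (-0.106) in LPS+siAtg5 against LPS. With quantile normalization they were Acot2 (-0.016) and Oxsm (-0.025) with Baf A1, Mcat (-0.098) and Oxsm (-0.094) with CLA, Acot2 (-0.163), Hadha (-0.006), Mcat (-0.146) and Oxsm (-0.477) in LPS+siAtg5 against LPS+dNC, and Acot2 (-0.309), Cpt2 (-0.024), Mcat (-0.09) and Oxsm (-0.381) in LPS+siAtg5 against LPS. With array weights Oxsm was at -0.121 with Baf A1 and -0.102 with CLA. Without the 3 libraries that lay apart, Oxsm was at -0.109 with Baf A1 and -0.081 with CLA, and Acot2 at 0.011 with CLA. Leaving out a library in turn, Acot2 ranged from -0.088 to 0.068 and Oxsm from -0.109 to 0.143 with Baf A1, Acot1 from -0.105 to 0.038, Mcat from -0.097 to 0.134 and Oxsm from -0.129 to 0.123 with CLA, and Acsl4 from -0.126 to 0.027 in LPS+siAtg5 against LPS+dNC. A further 37 single-gene values no longer passed the threshold and 17 newly passed it.

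Replicate numbers are shared between groups, but libraries with the same number did not deviate together (correlations of deviations -0.113 to 0.091), so the numbers were not taken as pairs. With a replicate block, members called were 26 with Baf A1, 24 with CLA, 31 in LPS+siAtg5 against LPS+dNC and 33 in LPS+siAtg5 against LPS. Fasn with Baf A1 (0.461, adjusted p = 0.0825), Acly (0.156) and Acadl (0.212) with CLA and Mcat in LPS+siAtg5 (0.246) were no longer called, and Acot2 with Baf A1 (-0.032), Mcat (-0.003) and Oxsm (-0.012) with CLA changed sign. Depth is unknown, so how far it limits low genes such as Acot1, Acot2 and Acacb cannot be stated.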
